A study of Mus musculus with 8 samples.

Results

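Domains of the histone variant H2A.X were compared between mouse embryonic stem (ES) cells with a knockdown (KD) of TDG and their control. All 1385 domains of the authors' TDG list were taken, of 25499 in the 6 lists of the series: 455 are marked in the list as higher in the control and 930 as higher in the knockdown. Both samples are ES cells of strain 129/Ola in serum medium with LIF and 15% fetal bovine serum; the control is labelled WT and the other Tdg KD. H2A.X was profiled by native chromatin immunoprecipitation, in which nuclease-cut chromatin is precipitated without fixation, with 0.5 µg of antibody. The other 5 lists pair DNMT1 control with DNMT1 knockout (KO), TKO control with TKO (serum, 129/Ola, not spelled out in the labels), and wild-type serum with 2i, 2i with PKCi and 2i with SRCi medium. The DNMT1 KO sample in serum and the wild-type media samples have the strain label 129S6/C57B6.

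Each condition has 1 library, so no difference between TDG control and knockdown has a replicate check, no test between conditions was made, and the read depth is unknown. How TDG was knocked down and how far its level fell are not given in the labels, and a domain list holds no expression value with which to check the knockdown or the cell type. Which mark stands for which library was taken from the order of conditions in the list's name. Positions are on mm9 and carry no gene annotation here.

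H2A.X is a form of histone H2A that takes a phosphate group near DNA breaks and so marks them for repair. TDG is a DNA glycosylase. It cuts out oxidised forms of methylcytosine made by the TET enzymes, and base excision repair then restores an unmethylated cytosine by way of a short-lived gap in the strand. ES cells in serum carry much DNA methylation, and the TET and TDG route is one way to remove it. Mouse autosomes have their centromere at one tip, so coordinates run from the centromere side to a single distal end.

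The control side and the knockdown side differed in kind: short stretches against very broad ones. Knockdown domains took up 33.7% of all 1 kb bins of the genome and control domains 0.274%, and on the 19 autosomes 30.1% and 0.271%. Autosomal control domains numbered 426 with a median of 6 kb (quartiles 3 and 15.75 kb). Autosomal knockdown domains numbered 857 with a median of 483 kb (quartiles 230 and 1058 kb). Of the control domains 262, or 61.5%, were shorter than 10 kb, and only 1 reached 200 kb. Of the knockdown domains 667, or 77.8%, were 200 kb or longer, and the 230 of at least 1 Mb held 68.4% of all knockdown bases. The lengths of the sides overlapped: 24 control and 25 knockdown domains were from 50 to below 100 kb, and 9 and 88 from 100 to below 200 kb. In the histogram of domain lengths the sides form separate humps, with a small extra set of very short knockdown domains.

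**Figure D1:**
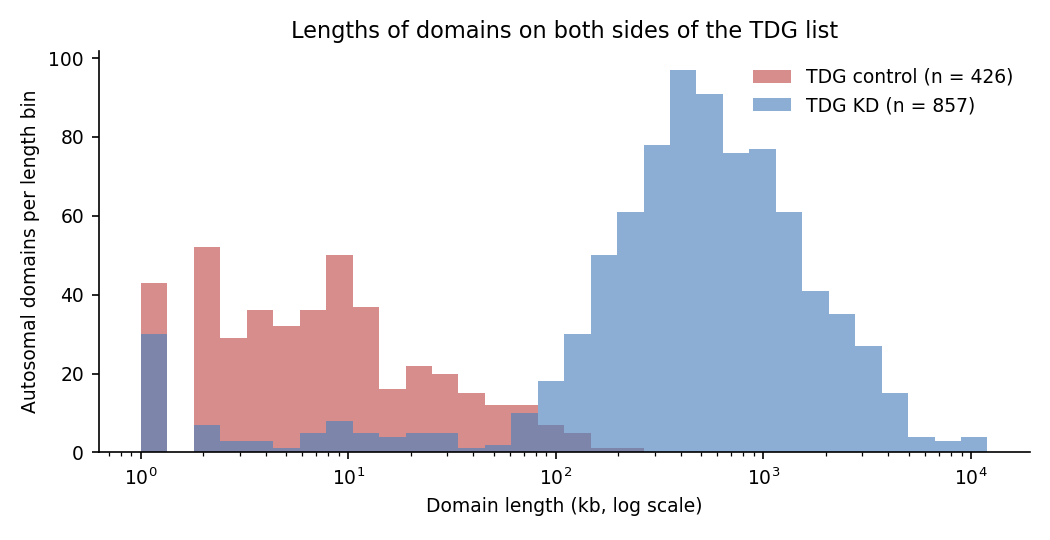
Number of autosomal domains per length bin (vertical axis) against domain length in kb on a log scale (horizontal axis), for 426 TDG control and 857 TDG KD domains. Control domains sit mostly below 50 kb and knockdown domains mostly above 100 kb.

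The authors' signed score, which is higher where the control library leads, parted the sides completely. Marks and score come from the same list, and whether the marks were set from the score is not stated. The parting may thus be fixed by how domains were called. Over all chromosomes the lowest control score was 1.14, at chromosome 7, 48436001 to 48473000, and the highest knockdown score was 0.975, at chromosome 12, 18490001 to 18496000. No unit is stated for the score. In the TDG list all 66 domains of 1 kb with a score other than 0 had a value equal to a whole number divided by a share in thousandths, to the 6 digits deposited. This is the form of a difference between whole counts divided by a usable share of the bin, with no factor for depth. The score is used here only to describe and rank domains.

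Control scores fell with length. Their median was 21.2 in the 43 autosomal domains of 1 kb, 10.7 from 2 to below 5 kb, 7.17 from 5 to below 10 kb, and 4.30 from 50 to below 100 kb. Broad knockdown domains had scores close to 0. Among the 780 autosomal knockdown domains of 50 kb or more, the median was 0.285 and the range -1.05 to 0.762, with 634 above 0 and 146 below. Within this class the score did not follow length in 1 direction. Its median was -0.108 in the 25 domains from 50 to below 100 kb and 0.0223 in the 88 from 100 to below 200 kb. It was highest, at 0.357, in the 190 from 500 kb to below 1 Mb, then 0.238 in the 82 from 2 to below 5 Mb and -0.125 in the 11 of 5 Mb or more, 7 of them below 0. In domains of 1 kb the score has the form of a difference with no factor for depth, and depth is unknown. A score of 0 therefore need not be a point of balance between the libraries. Counts above or below 0 only place domains on the authors' scale. The median score weighted by length over the whole TDG list was 0.286. Knockdown domains hold 896 Mb of that list and control domains 7.27 Mb. The value is therefore almost wholly that of the knockdown domains and is no reference point for them.

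**Figure D2:**
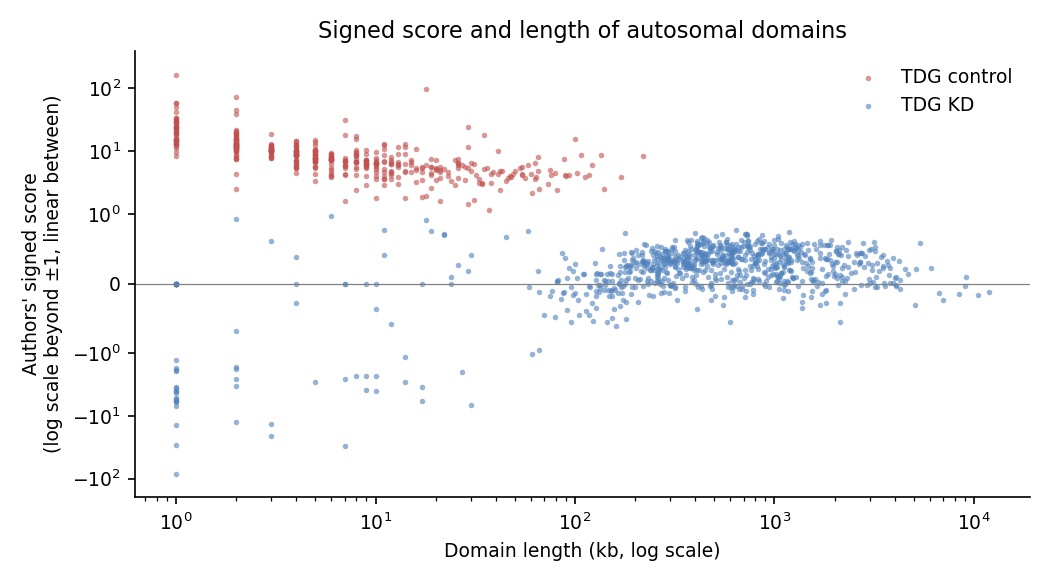
Authors' signed score (vertical axis, log scale beyond 1 and -1 and linear between) against domain length in kb (log scale) for each autosomal domain. Control points lie at 1.14 or above and fall with length, and knockdown points lie at 0.975 or below, with a cloud near 0 at over 50 kb and a scatter of short domains down to -83.3.

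The 77 autosomal knockdown domains shorter than 50 kb were unlike the broad ones and together spanned 0.608 Mb. Their median score was -1.15, with 43 below 0, 19 at exactly 0 and 15 above. The authors' second score, summed over bins and never above 1 per kb, had a median of 0.499 per kb in these domains and 0.864 per kb in the broad ones. The highest scores toward the knockdown lay in this short class. They were -83.3 at chromosome 2, 22444001 to 22445000, -30.3 at chromosome 17, 39979001 to 39986000, -29.7 at chromosome 17, 13743001 to 13744000, -21.0 at chromosome 8, 19982001 to 19985000, and -13.9 at chromosome 13, 66598001 to 66599000. At the first of these the TKO list had a score of -54.9 toward TKO. All 5 places were also in a 2i domain over serum, and 4 of them in a DNMT1 KO domain and 4 in a TKO domain. The place on chromosome 8 was instead in a TKO control domain, with a score of 2.73. Of autosomal bins, 2i domains over serum cover 11.8%, DNMT1 KO domains 3.58% and TKO domains 0.399%. These places were picked by score, and their overlap was not tested.

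By autosome, knockdown coverage ran from 17.2% of chromosome 3 to 49.1% of chromosome 11, with a median of 30.6%. Chromosome 11 was followed by chromosome 7 at 41.4%, chromosome 8 at 40.8% and chromosome 9 at 38.3%. The low end held chromosome 3, chromosome 16 at 18.5%, chromosome 18 at 19.3%, chromosome 10 at 19.7%, chromosome 1 at 20.1% and chromosome 13 at 21.0%. Coverage went with the number of domains more than with their median length. Across the 19 autosomes its Spearman rho was 0.749 with knockdown domains per 10 Mb and 0.246 with their median length. The median gives little weight to the 230 domains of at least 1 Mb, which held 68.4% of knockdown bases. Mean length was not set beside coverage. Knockdown coverage showed almost no relation to chromosome length (rho = -0.0298). These are descriptions over autosomes of the same 2 libraries.

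Knockdown domains were present on every autosome, between 27 on chromosomes 16 and 18 and 68 on chromosome 7. Their median length lay between 368.5 kb on chromosome 12 and 767.5 kb on chromosome 5. Their score, weighted by length, lay between 0.0317 on chromosome 4 and 0.416 on chromosome 13. On chromosome 4, 46.4 Mb lay in 35 knockdown domains, and the longest, 130120001 to 142028000, had a score of -0.125. On chromosome 13, 25.2 Mb lay in 43 domains, and the longest, 55409001 to 58491000, reached 3.08 Mb with a score of 0.194. Chromosome 17 had 18 of its 42 knockdown domains below 0, and chromosome 13 had 4 of 43.

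Control domains also lay on every autosome. They ranged from 13 on chromosome 15 to 34 on chromosome 4, or from 1.12 per 10 Mb on chromosome 14 to 2.77 per 10 Mb on chromosome 19, with a median of 1.72 per 10 Mb. Chromosomes 13 and 17, with 31 and 25 control domains, had the largest covered share at 0.660% and 0.607%, and chromosome 15 the smallest at 0.0657%. The density of control domains showed little relation to knockdown coverage over the autosomes (rho = 0.128). Median control scores by autosome lay between 5.52 on chromosome 10 and 10.1 on chromosome 4.

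**Figure D3:**
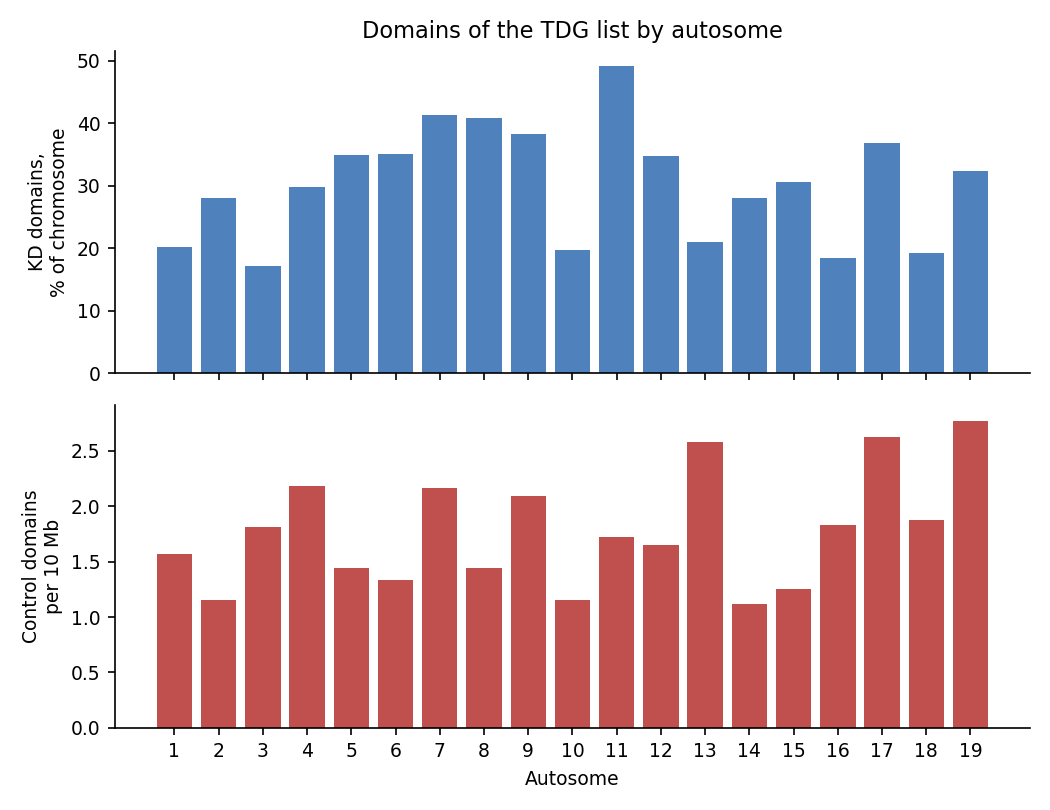
Share of each autosome covered by knockdown domains in percent (upper bars) and number of control domains per 10 Mb (lower bars). Knockdown coverage is highest on chromosome 11 at 49.1%, and control density is highest on chromosome 19 at 2.77 per 10 Mb.

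Knockdown coverage rose along the autosomes from the centromere side to the distal end. Each autosome was divided, from 3 Mb onward, into 10 segments of equal length. Pooled over 19 autosomes, knockdown domains covered 13.4% of segment 1, 21.5% of segment 2, 26.2% of segment 5, 34.6% of segment 8, 47.6% of segment 9 and 58.1% of segment 10. Each step of the 10 was higher than the one before. The number of domains rose less, from 67 in segment 1 to 104 in segment 10, while their median length went from 249 kb to 794 kb. The first 5 segments together were covered at 21.9% and the last 5 at 39.8%.

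Single autosomes varied widely around that course. Segment 10 was covered more than segment 1 on 17 of 19 autosomes, and the last 5 segments more than the first 5 on 15, all but chromosomes 13, 14, 16 and 17. Segment 10 coverage ranged from 10.6% on chromosome 13 to 92.8% on chromosome 7, and segment 1 coverage from 0 on chromosome 9 to 71.0% on chromosome 19. The 2 exceptions for the outer segments were chromosome 17, at 42.5% in segment 1 and 24.9% in segment 10, and chromosome 19, at 71.0% and 58.5%. Segment 10 was the highest of its autosome on 7 of 19 autosomes. On chromosome 13 the peak was segment 5 at 75.8%, on chromosome 9 segment 4 at 75.9%, and on chromosome 17 segment 3 at 73.4%.

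Control domains ran partly the other way. By midpoint, 84 lay in segment 1 and 67 in segment 2, against 20 in segment 8 and 44 in segment 10. Of the 426, 269 (63.1%, Wilson 95% interval 58.5% to 67.6%, counting error only) lay in the first 5 segments. Their median length and score there, 7 kb and 7.33, were close to the 6 kb and 7.78 of the last 5 segments.

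**Figure D4:**
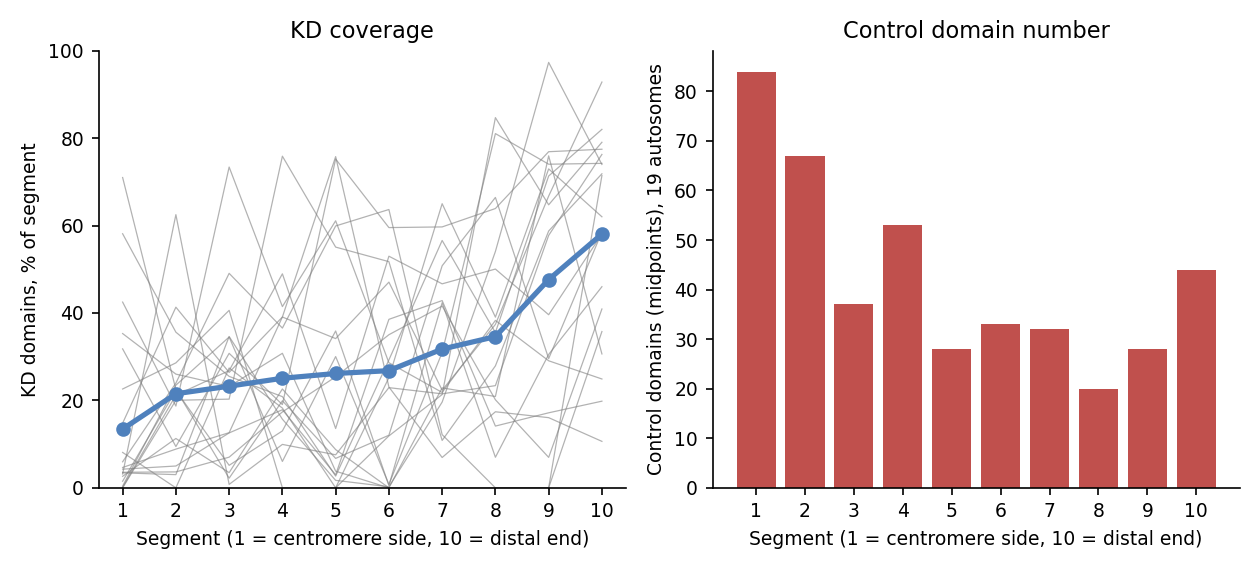
Left, share of each of 10 equal segments covered by knockdown domains, in percent, for 19 autosomes (grey lines) and pooled (blue points), from 13.4% in segment 1 to 58.1% in segment 10. Right, number of control domains by midpoint in each segment, 84 in segment 1 and 44 in segment 10.

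Near the distal end itself the gain was uneven. Knockdown domains covered 53.7% of the last 5 Mb of the autosomes together and 14.8% of the 5 Mb that follow the first 3 Mb, against 30.1% of the autosomes overall. In steps of 1 Mb, mean coverage was 24.8% in the terminal Mb and 40.3% in the next, rose to 70.1% between 2 and 3 Mb from the end, and was highest, at 76.3%, between 7 and 8 Mb from it. In that last step all 19 autosomes had some knockdown coverage, against 7 in the terminal Mb. By midpoint 38 of 857 knockdown domains, 4.43% (Wilson 95% interval 3.25% to 6.03%), lay in the last 5 Mb, a window that is 3.84% of autosomal length. The interval includes the share of the window. Shares of length here count the first 3 Mb of each autosome, where most chromosomes hold no sequence, so they are somewhat low. With 2 other settings the values were as follows. The last 10 Mb held 9.57% of domains (7.78% to 11.7%) in 7.69% of the length. That lower limit is too near the share of length to tell whether the interval leaves it out. With chromosome ends from the TDG list alone the last 5 Mb held 5.48% (4.15% to 7.22%). Those ends are set by the list's own last domain, so a domain lies at each end by construction. The intervals cover counting error only, and domains of 1 library pair are not replicates. The share near the end thus depends on the window and on the end used, and was not tested. The median length of these 38 was 850 kb, against 483 kb for all autosomal knockdown domains.

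The last 5 Mb was covered more than the rest on 14 of 19 autosomes. Coverage was complete on chromosome 4, 96.8% on chromosome 11, 88.5% on chromosome 7, 84.5% on chromosome 15 and 80.4% on chromosome 9. It was 0 on chromosomes 3, 13, 17 and 18, where the last knockdown domain stopped 5111, 6020, 6282 and 5829 kb before the end reached by any list, and on chromosome 12 it was 34.1% against 35.7% in the rest. With the last 10 Mb in place of 5 Mb the number was 17 of 19, and with the last 2 Mb it was 8.

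**Figure D5:**
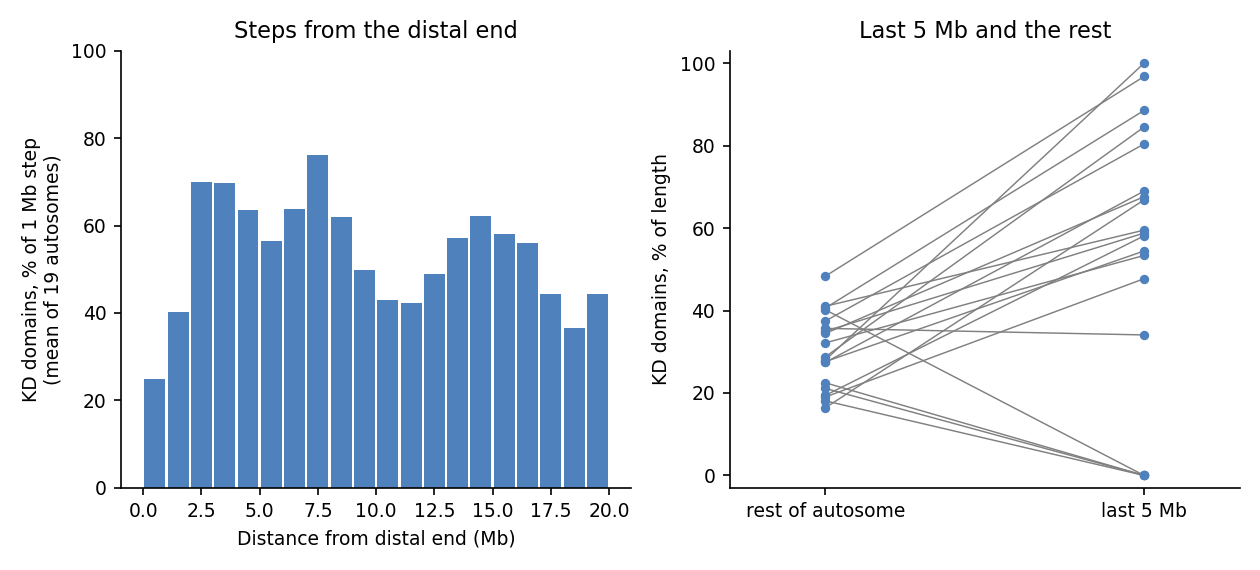
Left, mean knockdown coverage of 19 autosomes in percent for each 1 Mb step from the distal end, lowest in the terminal Mb at 24.8% and highest at 76.3% between 7 and 8 Mb. Right, coverage of the last 5 Mb beside the rest of the same autosome, with 1 line for each autosome; 14 of 19 lines rise and 4 end at 0.

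The very broad knockdown domains, which are part of the coverage described above, also lay mostly toward the distal side. Among all 857 autosomal knockdown domains, 82, 104 and 104 had their midpoint in segments 8, 9 and 10. Of the 11 autosomal domains of 5 Mb or more, picked after their values were seen, 8 had their midpoint in segments 8 to 10. The longest, on chromosome 4 (130120001 to 142028000, 11.9 Mb), ended 13.6 Mb before the distal end, and a further one of 8.44 Mb (147187001 to 155630000, score -0.155) reached it. Chromosome 12 held 10.5 Mb at 104161001 to 114686000 (score -0.171), chromosome 2 held 9.12 Mb at 161696001 to 170812000 (score 0.0876), and chromosome 5 held 9.01 Mb at 113986001 to 122999000 (score -0.0295). On chromosome 11 the domain at 116630001 to 121679000 lay within 162 kb of the end and had the lowest score of the 11, -0.307. The 3 away from the distal side were chromosome 2, 27359001 to 34050000, chromosome 17, 44310001 to 50384000, and chromosome 1, 90278001 to 95387000.

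Between knockdown domains the gaps had a median of 497.5 kb (quartiles 201.25 and 1512.5 kb), about the length of the domains themselves. Only 8 of 838 gaps were 10 kb or less, and 89 exceeded 5 Mb. The widest stretch free of knockdown domains measured 43920 kb, on chromosome 16 from 45832001 to 89752000. Next came 38017 kb on chromosome 14 (from 79716001 to 117733000) and 36422 kb on chromosome 12 (from 34092001 to 70514000).

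Control domains lay both beside and far from knockdown domains. Of the 426, 91 directly adjoined a knockdown domain on 1 flank and 5 on both flanks. These 5 stood inside an otherwise unbroken knockdown stretch and were 2 to 11 kb long. At the other extreme 143 (33.6%, Wilson 95% interval 29.2% to 38.2%) lay more than 1 Mb from any, and the farthest was 15905 kb away. Knockdown domains cover 30.1% of the autosomes, and 89 of the 838 gaps between them exceed 5 Mb. The share of all autosomal bins beside or that far from a knockdown domain was not computed. Whether control domains differ from the autosomes at large in this cannot be told. Median scores were 7.70 for domains adjoining on 1 flank, 10.4 for the 5 adjoining on both and 7.53 for those over 1 Mb away.

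Several of the longest control domains had others close by. Chromosome 4, 146000001 to 147000000, held 5 control domains spanning 250 kb, among them the longest of the list, at 218 kb with a score of 8.41. The neighbouring 145000001 to 146000000 held 3 more, spanning 260 kb. On chromosome 13, control domains at 12899001 to 13034000 (135 kb, score 8.74) and 13118001 to 13289000 (171 kb, score 3.93) were near neighbours. Chromosome 3, 105948001 to 106088000, held 1 of 140 kb with a score of 2.49, the weakest of the 5 longest. Of 341 windows of 1 Mb with a control domain, 282 held just 1, and 18 held 3 or more.

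Single places of 1 to 18 kb gave the highest control scores. They were 163 at chromosome 4, 3017001 to 3018000, 96.9 at chromosome 9, 3038001 to 3056000, 73.1 at chromosome 12, 75904001 to 75906000, 59.7 at chromosome 4, 3018001 to 3019000, and 58.6 at chromosome 6, 103599001 to 103600000. Of these 5, 3 lie just past 3 Mb, at the centromere side of their chromosome. Every one of the 5 places also met a DNMT1 KO domain and a 2i domain over serum, though on chromosome 9 by 1 kb of 18 kb in each. The 2 on chromosome 4 adjoin and have the same scores in those lists, so they are not separate places. DNMT1 KO domains cover 3.58% of autosomal bins and 2i domains over serum 11.8%. The 5 were picked by score, and their overlap was not tested.

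Other lists were set beside the TDG list to see where its sides lie. None of them uses a library labelled as TDG control or TDG knockdown, but no condition has more than 1 library, and the likeness was not tested here. The 8 samples of the series include no library for DNMT1 control or for wild-type serum. Whether those sides rest on the same library cannot be told, so the DNMT1 and serum lists may not be separate comparisons. Control bases lay in DNMT1 KO domains for 69.2%, where those domains cover 3.58% of the autosomes, in 2i domains over serum for 61.9% against 11.8%, and in TKO domains for 21.4% against 0.399%. This was not particular to the control side. The 77 knockdown domains below 50 kb had 23.5%, 23.4% and 19.2% of their bases in DNMT1 KO, 2i and TKO domains. Knockdown domains of 50 kb or more had 1.79%, 6.44% and 0.351%. In the other direction, control domains made up 5.23% of DNMT1 KO bases, 1.42% of 2i bases and 14.5% of TKO bases. By number, 181 of 426 control domains met DNMT1 KO, 214 met 2i over serum and 56 met TKO, while 167 (39.2%) met none of the 3. Among the 857 autosomal knockdown domains, 302 met DNMT1 KO, 408 met 2i over serum and 69 met TKO. The control domains that met none had a median of 5 kb and a score of 8.22. Meeting takes 1 shared bin, so a longer domain has more bins with which to meet, and shares by length are not set against each other here. Of the 34 control domains of 50 kb or more, 33 met DNMT1 KO, 31 met 2i over serum and 10 met TKO. Of the 160 below 5 kb, 51 met DNMT1 KO, 67 met 2i over serum and 23 met TKO. On chromosome 15, with a median control length of 4 kb, none of 13 control domains met DNMT1 KO, and on chromosome 12, with a median of 13 kb, 15 of 20 did.

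Knockdown bases lay in serum domains over 2i for 62.8%, where those cover 30.3% of the autosomes, and in DNMT1 control domains for 57.8% against 44.4%. For TKO control the shares were near each other, at 26.4% and 28.1%. Both include chromosome 11, where knockdown coverage is highest and TKO control covers 94.8% of the chromosome. There it covered 96.8% inside knockdown domains and 92.8% outside. Seen from the other lists, knockdown domains held 62.4% of serum bases, 39.2% of DNMT1 control bases and 28.3% of TKO control bases. DNMT1 control covered more inside knockdown domains than outside them on all 19 autosomes, with medians of 58.1% and 38.7%. Serum did so on 17 autosomes, with medians of 71.7% and 16.3%. The exceptions were chromosomes 6 and 8, where the serum side as a whole covers only 2.16% and 5.59%. TKO control did so on 4 of 19 autosomes, with medians of 17.1% inside and 25.9% outside.

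The rise toward the distal end was also seen on some of these sides. From segment 1 to segment 10, serum coverage went from 18.9% to 47.2% and DNMT1 control coverage from 35.9% to 59.0%, beside 13.4% to 58.1% for the TDG knockdown. TKO control went from 24.4% to 28.0%. In the last 5 Mb, serum covered 42.8%, DNMT1 control 53.4% and TKO control 26.1%. The distal gain of the TDG knockdown was thus shared in direction by serum and DNMT1 control, which may not be separate comparisons. The difference in its size was not tested.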

How the data were processed

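H2A.X chromatin immunoprecipitation libraries of TDG control and TDG KD ES cells, 1 each, were compared through the list of domains that the authors deposited. The submitters' processing notes name Bowtie2 2.0.6 and the build mm9. The sources used here do not give the domain caller, its settings or any scaling. The deposited scores are the authors' own, 1 signed score per domain and 1 summed over its 1 kb bins. They serve here for description and ranking. Depth is unknown.

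Python 3.11.15, pandas 2.3.3, numpy 2.4.6 and scipy 1.17.1 were used. Each chromosome ends at the largest end in the 6 lists, and segments start at 3 Mb, before which most chromosomes hold no sequence. Coverage was counted in 1 kb bins, and domains were assigned to windows by midpoint. A domain met another at 1 shared bin. Shares of domains carry Wilson 95% intervals, for counting error only. Coverage and merging steps were tested on simulated intervals.

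Named domains were, on the autosomes, the 5 longest of each side and the 5 scoring most toward it, the longest on X and Y, the longest knockdown domain of an autosome, and the autosomes with extreme count or coverage; domains of 5 Mb or more, knockdown-free stretches, windows of control domains and the domains at the score gap were chosen after their values were seen. The domains, the windows and the comparisons were chosen with earlier results of these data known. Coordinates count from 1. Alternatives kept the upper 50% of each side by score, merged domains within 10 kb, used autosomes only, left out scores within 0.05 of 0 or domains under 10 kb, and changed the window or the chromosome end.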

Additional observations from a re-analysis of the deposited data

How the results depend on the processing

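Of 51 alternative values for the 9 summary results, 37 kept within their limits (1.5 times for numbers, a 95% interval for the other values) and 14 did not. Keeping the upper 50% of each side by score lowered control domains from 455 to 228 and from 7.27 to 1.85 Mb, and knockdown domains from 930 to 465 and from 896 to 426 Mb, by construction. Median lengths then went from 7 to 3 kb for control and from 483.5 to 298 kb for knockdown. With domains of at least 10 kb only, control domains fell to 182 with a median of 21 kb, and the knockdown median was 547 kb. Control domains in the last 5 Mb, 4.93%, became 2.58% for the last 2 Mb and 9.39% for the last 10 Mb, and knockdown domains, 4.43%, became 0.933% and 9.57%, as the window changed. The number of autosomes with higher knockdown coverage at the distal end was 14. It was 8 for the last 2 Mb, 10 with the highest scores and 11 without scores near 0. For the last 10 Mb it was 17. With chromosome ends from the TDG list alone, where the list's own last domain sets the end, it was also 17. The cause was not tested. No paired analysis was possible because TDG control and knockdown are single libraries. What depth limits cannot be given without read totals. Genes and sequences at domains were not used here, since no mm9 genome or annotation was used.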

Other observations

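Outside the autosomes, most of the length in the TDG list lay on the knockdown side. Of X, 136.8 Mb (82.1%) lay in 65 knockdown domains with a median of 625 kb, and 17 control domains with a median of 16 kb covered 0.244%. The longest, 35168001 to 50829000, measured 15661 kb and lay in full in TKO control, PKCi and SRCi domains. It also lay in DNMT1 control domains for 15532 kb and in serum domains for 15119 kb. Coverage of the whole X by the other lists was not computed, so the 82.1% cannot be called particular to the TDG list. Of the X knockdown domains 25 had scores below 0 and 36 above. By segments X was covered more evenly than the pooled autosomes, with 81.4% in its first 5 segments and 85.8% in its last 5. By outer windows it also rose toward the distal end. Knockdown domains covered 57.1% of the 5 Mb that follow its first 3 Mb and 95.8% of its last 5 Mb. On Y, 12 control domains covered 1.08%, the longest at 2847001 to 2903000 with a score of 29.2. It adjoined the knockdown domain at 2903001 to 15902000, which has a score of 0. The same stretch also has a score of 0 in the other 5 lists, on the TKO control, DNMT1 control, serum, PKCi and SRCi sides. At 13.0 Mb it makes up most of the 14.2 Mb in the 7 knockdown domains of Y. A score of 0 in every list does not tell the conditions apart. The stretch is still counted in the 33.7% of the genome given for knockdown domains. Mitochondrial DNA was 1 knockdown domain with a score of -169, beside -138 toward TKO in the TKO list and -511 toward DNMT1 KO in the DNMT1 list.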
